A study of Homo sapiens with 4 samples.

Results

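The deposited transcript tables list, beside mRNA and lincRNA models, a class of rows for small and ribosomal RNAs: microRNA (miRNA) hairpins, small nucleolar RNAs (snoRNAs), transfer RNAs (tRNAs), and the large-subunit (LSU), small-subunit (SSU) and 5S ribosomal RNAs. Of 58146 rows, 2023 belonged to this class, being those whose transcript name starts neither with NM_ nor with linc_. A row was kept where it held at least 10 reads in at least 2 of the 4 libraries, which left 1034 rows. They comprised 386 of 939 miRNA rows, 276 of 402 snoRNA rows, 234 of 517 tRNA rows, 31 of 32 LSU rows, 7 of 8 SSU rows and 100 of 124 5S rows. The only other row of the class, H19, held 4, 2, 21 and 2 reads and was not kept. The rows were chosen by their read counts alone, so their abundance is a description and carries no test. At the edge, 14 kept rows had exactly 10 reads in their second-highest library, with at most 27 in the highest, and 17 rows left out had 9, with at most 24 in the highest. Of the kept rows, 929 held at least 10 reads in all 4 libraries, 6 were kept through both mock libraries alone and 8 through both H2O2 libraries alone. None of the kept rows shared its name with an mRNA row. The label of noncoding rows outside mRNA and lincRNA models therefore held by name, although most of the miRNA and snoRNA rows lay within other genes.

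The RNA came from Huh7, an established human hepatocellular carcinoma cell line. Mock-treated cells were compared with cells kept for 4 days in 300 µM hydrogen peroxide (H2O2), an oxidant, with the medium renewed daily. Each group had 2 libraries, titled H and Q; the meaning of the letters is not given in the sources used here, and no label says that the libraries came from separate cultures, so that p-values measure only the spread between these libraries. Total RNA was made into TruSeq RNA libraries, a kit for long RNA that does not select mature small RNAs by size. The libraries held 78126878 to 88409567 mapped mates. Reads summed over all rows came to 193168287 to 212113377, more than the mapped mates, so that reads are counted in more than 1 row. Hepatocyte and hepatoma markers were present in all libraries, with summed levels of 9955 and 3228 CPM (read counts scaled to a common library size) in mock H and Q and 11429 and 6625 CPM in H2O2 H and Q. The lowest count of any of these 9 markers was 1513 reads. The summed levels of the fibroblast, endothelial and blood markers were 8.37 to 14.0, 1.26 to 1.63 and 28.1 to 52.4 CPM. Within these lists COL1A1 held 7.59 to 11.8 CPM, CD68 25.9 to 50.1, CD14 2.08 to 3.69, PECAM1 1.09 to 1.36 and PDGFRB 0.532 to 1.51 CPM, and every other marker stayed under 0.35 CPM or, as DCN, CDH5 and HBB, did not reach 10 reads in 2 libraries.

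MicroRNAs are cut from hairpins in longer transcripts, often from introns of protein-coding genes, and the mature strand recognises target mRNAs through its seed, bases 2 to 8. Box C/D snoRNAs guide 2′-O-methylation and box H/ACA snoRNAs guide pseudouridylation of ribosomal and other RNAs, and most vertebrate snoRNAs are released from introns of host genes. Transfer RNAs carry amino acids to the ribosome, and the ribosomal RNAs form its core. The values here are counts of library reads over each locus, not measurements of the mature small RNA.

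The sequences below are those of the miRNAs on which the results turn, as RefSeq gives them on GRCh38.p14, with the seed in capitals. RefSeq mature or hairpin entries were found for 352 of the 386 miRNA rows. The first pair are single rows in introns, the lowest and the highest of the miRNA rows named in each direction.
hsa-miR-559: uAAAGUAAauaugcaccaaaa
hsa-miR-652-3p: aAUGGCGCcacuaggguugug

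The next pair, from 1 intron region on chromosome 3, share the seed AGCAGCA.
hsa-miR-15b-5p: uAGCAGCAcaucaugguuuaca
hsa-miR-16-5p: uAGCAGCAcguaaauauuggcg

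The following 3 come from 1 locus on chromosome 7, and the first 2 of them share the seed AAAGUGC.
hsa-miR-106b-5p: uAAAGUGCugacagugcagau
hsa-miR-93-5p: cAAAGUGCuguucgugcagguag
hsa-miR-25-3p: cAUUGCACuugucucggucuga

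The next 5 lie side by side on chromosome 4. The 4 miR-302 members share the seed AAGUGCU, and miR-367-3p shares the seed AUUGCAC with miR-25-3p.
hsa-miR-302a-3p: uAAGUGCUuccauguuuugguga
hsa-miR-302b-3p: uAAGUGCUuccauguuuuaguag
hsa-miR-302c-3p: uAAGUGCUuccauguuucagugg
hsa-miR-302d-3p: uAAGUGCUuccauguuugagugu
hsa-miR-367-3p: aAUUGCACuuuagcaaugguga

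The last pair occupy the same bases on opposite strands of chromosome 5 (chr5:168560904-168560926), so that each is the reverse complement of the other.
hsa-miR-103a-3p: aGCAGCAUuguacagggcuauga
hsa-miR-103b: uCAUAGCCcuguacaaugcugcu

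For the snoRNAs the GENCODE release 29 transcripts are shown in DNA letters, since rows of 1 host gene are compared later although their sequences differ. In the box C/D members the capitals mark the first TGATG, part of box C, and the last CTGA, box D. The 3 that follow lie in introns of RABGGTB.
SNORD45A: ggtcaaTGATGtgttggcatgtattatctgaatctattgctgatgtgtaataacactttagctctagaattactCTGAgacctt
SNORD45B: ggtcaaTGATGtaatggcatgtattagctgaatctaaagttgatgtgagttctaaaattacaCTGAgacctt
SNORD45C: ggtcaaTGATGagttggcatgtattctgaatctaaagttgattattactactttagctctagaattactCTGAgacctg

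In the box H/ACA members the capitals mark the ACA that stands 3 bases from the 3′ end. The pair that follows lie in SNHG12.
SNORA16A: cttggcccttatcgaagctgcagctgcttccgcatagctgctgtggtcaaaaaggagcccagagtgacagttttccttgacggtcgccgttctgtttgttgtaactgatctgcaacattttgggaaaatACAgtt
SNORA61: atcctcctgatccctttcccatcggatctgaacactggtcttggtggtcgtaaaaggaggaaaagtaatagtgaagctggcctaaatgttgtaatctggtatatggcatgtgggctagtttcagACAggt

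Searched on the transcript strand, TGATG followed by CTGA was present in 118 of 125 matched box C/D rows (94.4%) and in 247 of all 275 GENCODE transcripts with such a symbol (89.8%). ACA at 3 bases from the end was present in 76 of 102 matched box H/ACA rows (74.5%) and in 107 of all 142 (75.4%).

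H2O2 was compared with mock in 1 edgeR quasi-likelihood fit over all 41934 rows, of every class, that held at least 10 reads in at least 2 libraries. At a Benjamini-Hochberg adjusted p of 0.05 the test called 0 of the 41934 rows in either direction (0%), and so none of the 1034 small RNA rows, whose lowest adjusted p was 0.732. At an unadjusted p under 0.05 there were 37 small RNA rows, 3.58% of them, against 6.67% of all rows. DESeq2, run as an alternative, called 208 of the 41934 rows (0.496%), and 1 of these was a small RNA row, hsa-mir-559. All directions that follow are therefore described without a called difference in the edgeR test. Levels are CPM scaled by TMM, a correction for differences in library composition, and each fold change is the fitted log2 ratio of the H2O2 to the mock libraries.

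The small RNA rows lay on the higher side in H2O2 more often than the other rows did. Their median log2 fold change was 0.15, with 689 rows higher and 345 lower, beside -0.02 over all rows tested, 0.01 over mRNA rows and -0.18 over lincRNA rows. Both H2O2 libraries lay above both mock libraries in 291 of the rows (28.1%), against a background of 18.1% of all rows, and both lay below in 132 (12.8%), against 20.7%. The groups differed among themselves. The share above was 26.7% for miRNA rows, 31.9% for snoRNA rows, 22.2% for tRNA rows, 3.23% for LSU rows, 28.6% for SSU rows and 45% for 5S rows. The share below was 14.2%, 3.26%, 17.9%, 64.5%, 42.9% and 3% in the same order. For the SSU rows the shares are only 2 and 3 of 7 rows. Among those above, SSU-rRNA_Hsa_dup5 held 4 and 7 reads in mock and 18 and 12 in H2O2, and it was kept through the H2O2 libraries alone. All these shares count rows that can hold the same reads and are not tests.

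Taken within each title letter, the groups kept their sides with unequal sizes. The median log2 ratio of H2O2 to mock was 0.15 in letter H and 0.04 in letter Q for miRNA rows. It was 0.18 and 0.24 for snoRNA rows. It was 0.12 and 0.06 for tRNA rows and 0.28 and 0.09 for 5S rows. The LSU rows stood at -0.16 in H and -1.17 in Q. The SSU rows stood at -0.31 and -0.07.

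**Figure D1:**
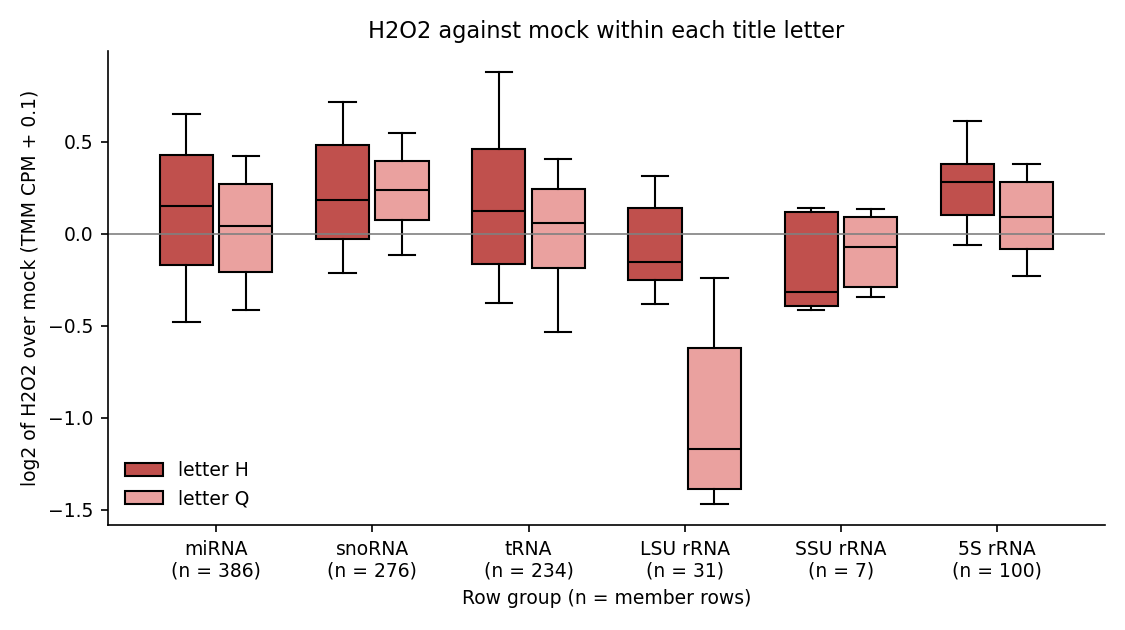
Log2 ratio of H2O2 to mock (TMM CPM plus 0.1) for the rows of each group, separately in letter H (dark) and letter Q (light); boxes span the quartiles with the median as a line, and whiskers reach the 10th and 90th percentiles. The medians for snoRNA rows are 0.18 and 0.24, and the LSU rows differ most between letters, at -0.16 and -1.17.

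The miRNA rows were shallow: the median row held 55 and 73 reads in mock H and Q and 65.5 and 77 in H2O2 H and Q. Summed over the 386 rows the level was 443 and 357 CPM in mock and 473 and 395 CPM in H2O2, so the H libraries were the higher in each group and the groups overlapped. One row, hsa-mir-1244-1, singled out after its values were seen, held 16.4% and 9.48% of all miRNA row reads in mock and 13.7% and 12.7% in H2O2. It is one of several loci with the same mature sequence, and how reads were shared among them is not given.

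Rows were named as higher or lower only where at least 2 libraries held at least 100 reads and the groups did not overlap. The lack of overlap given below for rows named in this way is set by that rule. Lowest of the rows named was hsa-mir-559, which lies in an intron of EPCAM, the gene of an epithelial adhesion protein. RefSeq places the mature miR-559 at chr2:47377690-47377710, plus strand (GRCh38.p14). The row held 1129 reads in mock H and 823 in mock Q, and 294 in H2O2 H and 337 in H2O2 Q, or 6.26, 3.67, 1.53 and 1.51 CPM. Both H2O2 libraries were below both mock libraries and near each other, while the mock libraries differed by a wide margin. The log2 fold change was -1.71 with a standard error (SE) of 0.34, and the edgeR adjusted p was 0.732, whereas DESeq2 gave -1.69 with an adjusted p of 0.00552. EPCAM itself had 147 and 93.7 CPM in mock and 35.5 and 34.3 CPM in H2O2, a log2 fold change of -1.78 (SE 0.27; edgeR adjusted p = 0.732). Over the 4 libraries the miRNA row held 4.17% as many reads as the mRNA row.

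The other named miRNA rows on the lower side had smaller fold changes, and those with a host mRNA row stood beside hosts that were also below 0. The row hsa-mir-1233-2, in GOLGA8B, held 3.39 and 3.25 CPM in mock and 1.76 and 2.03 CPM in H2O2, without overlap (log2 -0.81, SE 0.24), and GOLGA8B stood at -0.57. Its copy hsa-mir-1233-1, in the paralogue GOLGA8A, held 1.81 and 2.06 CPM in mock and 1.27 and 1.34 CPM in H2O2 (log2 -0.57, SE 0.26), and GOLGA8A stood at -0.47. Since both hairpins and both host genes are near-identical copies, reads may have been shared between them and each value is uncertain. The row hsa-mir-455, in the collagen gene COL27A1, held 118 and 162 reads in mock and 67 and 115 in H2O2 (log2 -0.67, SE 0.35), beside -0.57 for COL27A1. The row hsa-mir-3189, in GDF15, a stress-responsive cytokine gene, held 373 and 670 reads in mock and 285 and 424 in H2O2. On the CPM scale its groups just separated, at 2.07 and 2.99 against 1.48 and 1.90, and the log2 fold change of -0.58 (SE 0.31) stood beside -0.35 for GDF15. The rows hsa-mir-663, hsa-mir-1914 and hsa-mir-1293 had log2 fold changes of -0.67, -0.57 and -0.57, with SEs of 0.39, 0.38 and 0.30. Hosts of the last pair, UCKL1 and LIMA1, stood at -0.22 and -0.30, and hsa-mir-663 lies in a noncoding gene with no mRNA row. Leaving out mock H moved hsa-mir-1914 to -0.14 and hsa-mir-663 to -1.01, and leaving out mock Q moved them to -0.91 and -0.22. Without mock Q hsa-mir-3189 stood at -0.29, and without H2O2 H hsa-mir-455 stood at -0.42. For hsa-mir-663 the lower mock library, at 0.510 CPM, lay close to the higher H2O2 library, at 0.457 CPM. The row hsa-mir-1914 held 159 and 117 reads in mock and 98 and 97 in H2O2. Only its mock libraries reached the read count that the naming rule asked for. Its place among the named rows therefore rests on the group in which it is high.

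On the higher side, hsa-mir-652 held 63 and 84 reads in mock and 155 and 140 in H2O2, or 0.349, 0.374, 0.806 and 0.627 CPM. The H2O2 libraries were both above both mock libraries, as naming required. Only the H2O2 libraries reached the read count that the naming rule asked for. The place of hsa-mir-652 among the named rows therefore rests on the group in which it is high. The log2 fold change was 0.98 (SE 0.33), while its host, TMEM164, stood at 0.35 (SE 0.22), 0.63 lower on the log2 scale. The rows hsa-mir-15b and hsa-mir-16-2, which lie near each other in SMC4, a condensin subunit gene, held the same counts in every library: 119 and 196 in mock and 284 and 253 in H2O2. Both groups were separate, at 0.659 and 0.874 against 1.48 and 1.13 CPM, and the log2 fold change was 0.77 (SE 0.32) beside 0.58 for SMC4. Their mature sequences, printed above, share a seed and differ downstream of it.

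Rows outside the naming rule, chosen after their values were seen, were shallower or more uneven. The row hsa-mir-614, in GPRC5A, had the lowest log2 fold change of any miRNA row, -3.59 (SE 0.84), with 11 and 28 reads in mock and 1 and 2 in H2O2, and GPRC5A stood at -1.56. Only the mock libraries of hsa-mir-614 reached the read count asked of kept rows. Its rank therefore rests in part on the group in which it is high. The row of the liver miRNA hsa-mir-122 held 37 reads in mock H, 1 in mock Q, 20 in H2O2 H and 7 in H2O2 Q, so the letters separated it and the groups overlapped. The row hsa-mir-210 held 78 and 9 reads in mock and 17 and 19 in H2O2, so that the mock libraries were the highest and the lowest of the 4.

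**Figure D2:**
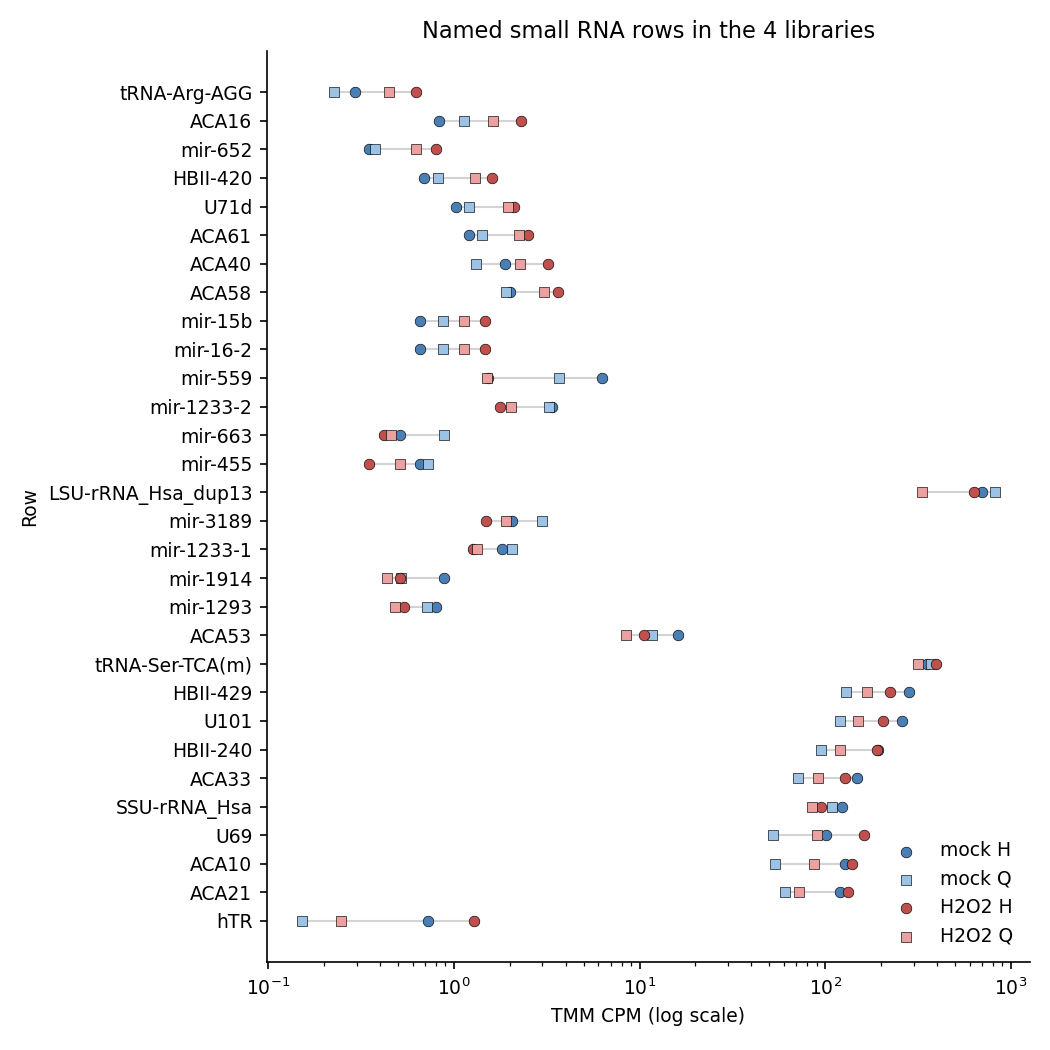
TMM CPM on a log scale of each named row in the 4 libraries (blue, mock; red, H2O2; circles, letter H; squares, letter Q). For mir-559 both H2O2 values, 1.53 and 1.51, lie below both mock values, 6.26 and 3.67, while for hTR and most of the abundant snoRNA rows the circles lie right of the squares in both groups.

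Most rows could be set beside the gene in which they lie. By name, 643 of the 1034 rows matched RefSeq, 632 of these lay in a GENCODE gene, and 537 lay in a gene with an mRNA row in the tables, 478 on its strand and 59 on the other strand. Over 329 miRNA rows with a tested host, the log2 fold changes of row and host had a Pearson correlation of 0.78, and 264 rows (80.2%) had the direction of the host. The median absolute difference was 0.16. With at least 100 reads in at least 2 libraries the correlation was 0.91 over 153 rows. For the 55 miRNA rows on the strand opposite to the host mRNA it was 0.87. For 207 snoRNA rows it was 0.77, with a median absolute difference of 0.06, and for the 187 deeper ones it was 0.87. Row and host share the 4 libraries and can share reads, several rows share a host (292 hosts for the miRNA rows and 132 for the snoRNA rows), and these correlations are a description across rows, not across replicates. In the median, a miRNA row held 1.92% as many reads as the mRNA row of its host and a snoRNA row 3.48%. Among the rows with a tested host, the median log2 fold change was 0.15 for miRNA rows and 0.17 for snoRNA rows. The medians of their hosts, counted once per row, were 0.04 and 0.15.

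**Figure D3:**
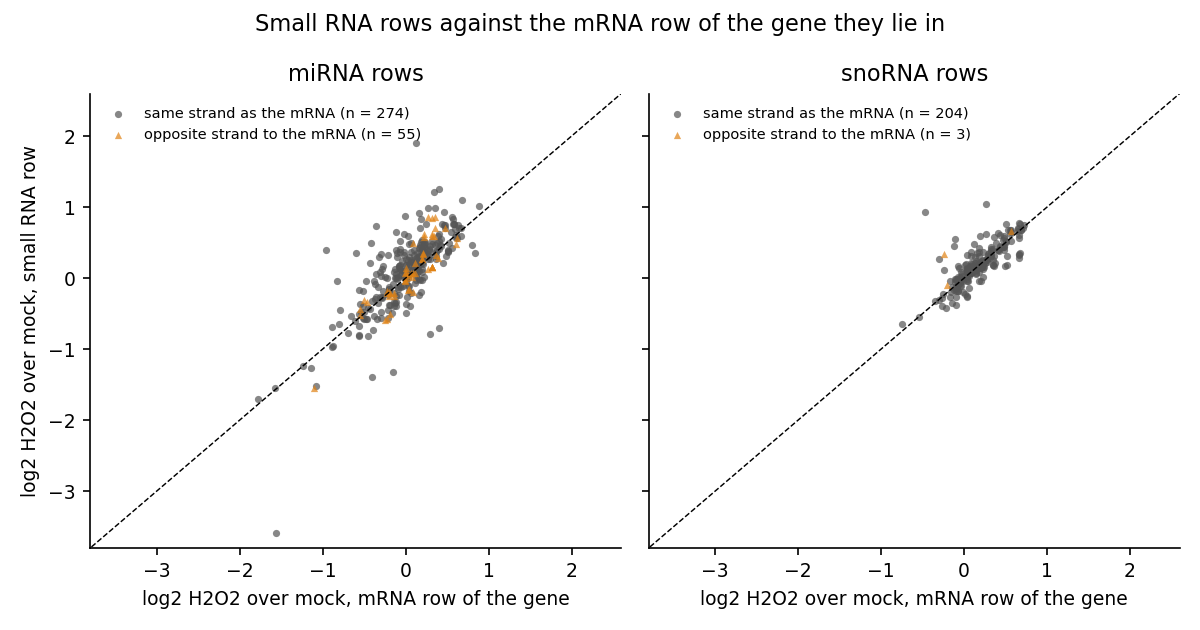
Log2 fold change, H2O2 over mock, of each miRNA row (left, 329 rows) and snoRNA row (right, 207 rows) against that of the mRNA row of the gene in which it lies; triangles mark rows on the strand opposite to the mRNA, and the dashed line marks equal values. Points gather along the line, with correlations of 0.78 and 0.77.

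In some genes, rows that lie together repeated nearly 1 count, while in others they differed in level. The highest row total was 18.5 times the lowest among 5 rows in C9orf3 and 16.7 times among 8 rows in SNHG1. The rows of the 5 miRNAs of the miR-302 and miR-367 locus, which lies in an intron of LARP7 on the opposite strand, held 199 to 202 reads in mock H, 194 to 196 in mock Q, 234 to 235 in H2O2 H and 216 to 222 in H2O2 Q. Despite the 2 seeds among them, the highest of the 5 row totals was 1.01 times the lowest. These miRNAs are known for pluripotent cells, and the log2 fold changes of 0.15 to 0.16 for the rows stood beside 0.32 for LARP7, a 7SK-binding protein gene. The rows of hsa-mir-106b, hsa-mir-93 and hsa-mir-25, in MCM7, a helicase subunit gene of DNA replication, held 1299 to 1360 reads in mock H, 1495 to 1573 in mock Q, 1978 to 2038 in H2O2 H and 1752 to 1830 in H2O2 Q. The totals differed by a factor of 1.04, the log2 fold changes were 0.37 to 0.39, and MCM7 stood at 0.50.

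Identical counts also occurred across strands. The row hsa-mir-103-1 and its antisense row held 375, 556, 790 and 585 reads each, and hsa-mir-103-2 and its antisense row held 214, 242, 228 and 265 reads each. As the sequences above show, the mature miR-103a-3p and miR-103b of the first pair are reverse complements, so these counts do not tell the strands apart. Among the kept rows there were 19 sets with identical counts in all 4 libraries, holding 43 rows, and 9 of the sets had rows on both strands. Where rows repeat reads, a count of rows is larger than the number of independent loci.

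**Figure D4:**
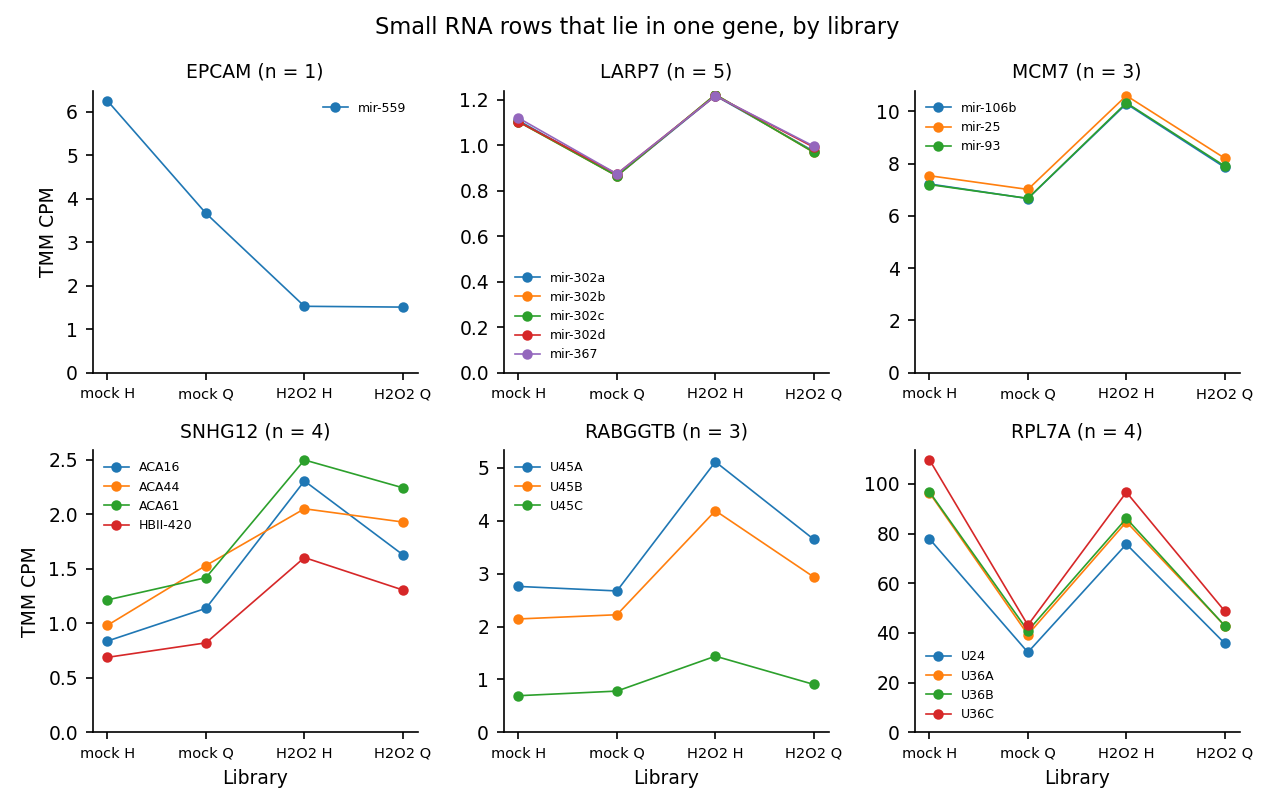
TMM CPM, on axes starting at 0, of the small RNA rows in each of 6 genes, by library. The 5 rows in LARP7 and the 3 in MCM7 nearly coincide, mir-559 in EPCAM is lowest in both H2O2 libraries, the rows in SNHG12 are higher in both H2O2 libraries, and those in RPL7A follow the letter.

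The snoRNA rows were deeper, with medians of 389 and 436 reads in mock H and Q and 564 and 564 in H2O2 H and Q. Of the 276 rows, 220 were higher in H2O2 and 56 lower, with a median log2 fold change of 0.20. The median was 0.17 for 144 box C/D rows, 0.31 for 102 box H/ACA rows and 0.14 for 21 rows of Cajal body RNAs. Summed over all snoRNA rows the level was 5833 CPM in mock H, 3004 in mock Q, 5862 in H2O2 H and 3695 in H2O2 Q. The H libraries exceeded the Q libraries in both groups, and the groups overlapped. Leaving out mock H raised the median to 0.48 and leaving out H2O2 Q raised it to 0.42, whereas leaving out mock Q gave 0.07 and leaving out H2O2 H gave 0.06.

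The letter separated above all the snoRNA rows in ribosomal protein genes. In these 55 rows the median log2 ratio of Q to H was -1.10 in mock and -0.78 in H2O2, and in 54 of them Q was below H in both groups. The 140 ribosomal protein mRNA rows showed -1.03 and -0.76. H2O2 against mock, the median was 0.08 for these snoRNA rows and 0.14 for the mRNA rows, and none of the 55 had both H2O2 libraries outside both mock libraries. In the other 221 snoRNA rows the median ratio of Q to H was -0.04 in mock and -0.18 in H2O2, the median log2 fold change was 0.26, and 88 lay above and 9 below without overlap, 39.8% and 4.07%, against 18.1% and 20.7% of all rows. What the letter stands for was not tested.

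The most abundant snoRNA rows by count were of the first kind. The row HBII-429 (SNORD100), in RPS12, held 284 and 129 CPM in mock H and Q and 225 and 167 CPM in H2O2. U101 (SNORD101), in the same gene, held 261, 120, 204 and 150 CPM, and ACA33 (SNORA33), also there, held 148, 71.5, 128 and 91.4 CPM. In each of the 3 rows the mock libraries were the highest and the lowest of the 4, and the log2 fold changes were -0.08, -0.11 and 0.00, with SEs of 0.42, 0.42 and 0.40, beside -0.05 for RPS12. HBII-240 (SNORD72) in RPL37, ACA10 (SNORA10) in RPS2 and ACA21 (SNORA21) in RPL23 stood at 0.11, 0.31 and 0.19, with SEs of 0.42, 0.47 and 0.44. U69 (SNORA69) in RPL39 had 101 and 52.3 CPM in mock and 161 and 90.7 CPM in H2O2. It was higher in H2O2 within each letter, by 0.67 and 0.79, yet the groups overlapped, and the fold change of 0.71 (SE 0.43) equalled that of RPL39, 0.71. Leaving out 1 library moved it to 1.27 (mock H), 0.31 (mock Q), 0.24 (H2O2 H) or 1.07 (H2O2 Q). The 4 rows in RPL7A, U24 and U36A to U36C, singled out after their values were seen, held 78.0 to 110 CPM in mock H and 75.8 to 96.7 in H2O2 H, against 32.2 to 43.1 in mock Q and 35.8 to 48.8 in H2O2 Q.

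Per length, the order of abundance changes. On the deposited FPKM scale, which divides reads by row length, tRNA-Ser-TCA(m) had 11322 to 12993, HBII-429 had 3986 to 8041 and LSU-rRNA_Hsa_dup13 had 2076 to 4771. By count the order of these 3 rows, the largest when 1 row is taken per gene name, was the LSU row, the tRNA row and the snoRNA row. The LSU rows dup12 and LSU-rRNA_Hsa, which share the name of dup13, also held more reads than the tRNA row.

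The rows named as highest in H2O2 included 6 snoRNAs, all in noncoding host RNAs or in genes other than those of cytoplasmic ribosomal proteins. That absence was set by the naming rule, which required groups without overlap. None of the 55 snoRNA rows in ribosomal protein genes met it. Of the 6 named snoRNAs, 3 lay in SNHG12, a host RNA whose exons encode no known protein. ACA16 (SNORA16A) held 151 and 255 reads in mock and 443 and 363 in H2O2, or 0.837 and 1.14 against 2.30 and 1.63 CPM (log2 0.99, SE 0.33). ACA61 (SNORA61) held 219 and 318 against 480 and 500 reads, or 1.21 and 1.42 against 2.50 and 2.24 CPM (log2 0.85, SE 0.26). HBII-420 (SNORD99) held 124 and 184 against 308 and 291 reads, or 0.687 and 0.820 against 1.60 and 1.304 CPM (log2 0.95, SE 0.29). In all 3 rows the H2O2 libraries were above both mock libraries, as the naming rule required. The fourth row in SNHG12, ACA44, had a log2 fold change of 0.66. Unlike the rows in LARP7 and MCM7, the 4 rows in SNHG12 differed in level, by a factor of 1.67 between the highest and lowest totals.

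Several other host RNAs gave values on the same side. U71d (SNORA71D), in SNHG17, held 1.03 and 1.20 CPM in mock and 2.12 and 1.95 CPM in H2O2, without overlap (log2 0.87, SE 0.26), and the 4 U71 rows ranged from 0.51 to 0.87. The 8 snoRNA rows in SNHG1 ranged from 0.19 to 0.59, and the 10 in GAS5, whose spliced RNA is known to accumulate in growth arrest, from 0.19 to 0.33. A set of 47 snoRNA rows was taken by host name: SNHG hosts, GAS5, ZFAS1 and EPB41L4A-AS1. Of these, 43 were higher, with a median log2 fold change of 0.36, and 19 lay above and 1 below without overlap, 40.4% and 2.13%, against the backgrounds of 18.1% and 20.7%. The set leaves out LRRC75A-AS1, a host with no mRNA row. Its 3 snoRNA rows, with 5300 to 13123 reads, had log2 fold changes of 0.017 to 0.019. The host RNAs themselves were not matched to a row by name, and row and host are not set side by side here.

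Among snoRNA rows of protein-coding hosts, ACA40 (SNORA40), in TAF1D, the gene of a subunit of the RNA polymerase I factor SL1, held 1.88 and 1.32 CPM in mock and 3.20 and 2.26 CPM in H2O2 (log2 0.77, SE 0.33; 0.50 without H2O2 H). The 7 rows in TAF1D, 1 of them a miRNA, ranged from 0.28 to 0.77, and TAF1D stood at 0.66. ACA58 (SNORA58), in the mitochondrial ribosomal protein gene MRPL3, held 2.02 and 1.90 CPM in mock and 3.63 and 3.04 in H2O2 (log2 0.77, SE 0.25), beside 0.68 for MRPL3. U45A, U45B and U45C, whose sequences are printed above, had 2.76, 2.14 and 0.69 CPM in mock H, so that their levels differed, while their log2 fold changes of 0.69, 0.71 and 0.67 lay close to that of RABGGTB, 0.65. On the lower side the rule named 1 snoRNA row, ACA53 (SNORA53), in the mitochondrial phosphate carrier gene SLC25A3. It held 2925 and 2619 reads in mock and 2044 and 1881 in H2O2, or 16.2 and 11.7 against 10.6 and 8.43 CPM, and its log2 fold change of -0.55 (SE 0.26) matched the -0.54 of SLC25A3. Without mock H it was -0.29.

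The telomerase RNA (TERC), a box H/ACA-type RNA that is the template of telomerase, has the row hTR. It held 131 reads in mock H, 34 in mock Q, 248 in H2O2 H and 55 in H2O2 Q, or 0.726, 0.152, 1.29 and 0.247 CPM. On CPM plus 0.1, an offset that shrinks ratios at levels this low, H2O2 was higher within each letter, by 0.75 and 0.46. On that scale the letters differed far more, by -1.72 in mock and -2.004 in H2O2. The groups overlapped, and the fitted log2 fold change was 0.81 (SE 1.01, edgeR adjusted p = 0.867). The log2 fold change was -0.82 without H2O2 H, 1.56 without H2O2 Q, 2.33 without mock H and 0.07 without mock Q. Of the listed RNA polymerase III genes, snoRNA host RNAs, nuclear body RNAs and imprinted RNAs, 0 were measured as rows of this class, and TERC was the only one of 34 RNAs studied in cancers.

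The genes of proteins that work with these RNAs were taken from the same fit, in which none was called. All 8 tested genes of box H/ACA and telomerase proteins were higher, with a median of 0.38, and 7 had both H2O2 libraries above both mock libraries (87.5%, against 18.1% of all rows). Among them were DKC1, the pseudouridine synthase, at 0.48 (SE 0.20), and TERT, the telomerase reverse transcriptase, at 0.93 (SE 0.27). The 4 tested box C/D proteins were all higher, with a median of 0.26, and the methyltransferase FBL stood at 0.32 (SE 0.46). Of 9 tested miRNA processing genes 4 were higher and 5 lower, with a median of -0.02, and DGCR8, the partner of DROSHA in hairpin cleavage, stood at -0.55 (SE 0.22). The RNase P and RNase MRP proteins, which act on tRNA and rRNA precursors, were higher in 8 of 10, with a median of 0.20. The 7SK and P-TEFb genes were higher in 4 of 7 (median 0.08), the paraspeckle genes in 4 of 7 (0.08) and the genes of nonsense-mediated decay in 5 of 10 (0.01). The lowest edgeR adjusted p in these lists was 0.732, and 1 box C/D gene, 2 box H/ACA and telomerase genes and 1 decay gene had an unadjusted p under 0.05, against 6.67% of all rows.

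The tRNA rows carry names of the kind used in repeat annotation, and none was matched to RefSeq. Most of their reads were counted in 1 row: tRNA-Ser-TCA(m), on chromosome 1, held 61.3% and 60.2% of tRNA row reads in mock and 57.3% and 57.1% in H2O2. Whether these reads arose at that locus or at like sequences elsewhere was not tested for this row. Its level was 353 and 370 CPM in mock and 397 and 317 CPM in H2O2, so that both mock libraries lay between the H2O2 libraries (log2 -0.02, SE 0.24). The other rows were shallow, and the median tRNA row held 55 and 59.5 reads in mock and 87 and 63 in H2O2. Over the 234 rows the median log2 fold change was 0.11, and 52 rows lay above and 42 below without overlap. These shares, 22.2% and 17.9%, are near the 18.1% and 20.7% of all rows.

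The row named highest of all was tRNA-Arg-AGG, on chromosome 13, with 53 and 51 reads in mock and 120 and 100 in H2O2, or 0.294 and 0.227 against 0.624 and 0.448 CPM. Its groups were separate, as naming required, with a log2 fold change of 1.04 (SE 0.38). Only its H2O2 libraries reached the 100 reads that naming asked of 2 libraries. Its place in the ranking therefore rests on the group in which it is high. By amino acid, 17 of 20 Cys rows and 14 of 15 Gln rows were higher, with medians of 0.48 and 0.34, and 11 of 16 Ile rows and 8 of 11 Val rows were lower, with medians of -0.14 and -0.11. These counts rest in part on repeated reads. Of the 20 Cys rows, 14 lay on chromosome 7, and 9 of those had exactly 10 reads in mock H and 22 in H2O2 H. Of the 6 Cys rows elsewhere, 4 were higher, with log2 fold changes from -0.02 to 0.41. The row tRNA-Gln-CAA_, singled out after its values were seen, held 377 reads in mock H and 4007 in mock Q, against 2922 and 2075 in H2O2, so that its mock libraries lay on either side of the H2O2 libraries.

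The ribosomal RNA rows did not move together: the LSU rows lay on the lower side in H2O2 and most 5S rows on the higher side. All 31 LSU rows and all 100 of the 5S rows are annotated on chromosome 1. Summed, the LSU rows stood at 2849 CPM in mock H, 3232 in mock Q, 2561 in H2O2 H and 1473 in H2O2 Q. Both H2O2 libraries were below both mock libraries, and H2O2 Q was by far the lowest. The median log2 fold change was -0.64, 28 of 31 rows were lower, and 20 lay below and 1 above without overlap, 64.5% and 3.23% against 20.7% and 18.1% of all rows. H2O2 Q was the lowest of the 4 libraries in 26 rows. Without H2O2 Q the median was -0.26, and without H2O2 H it was -1.12.

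The row of highest count in the whole class, LSU-rRNA_Hsa_dup13, held 126184 and 184435 reads in mock and 121291 and 73706 in H2O2, or 699 and 822 against 631 and 330 CPM. The groups did not overlap, but H2O2 H lay nearer to mock H than to H2O2 Q, and the log2 fold change was -0.66 (SE 0.37; edgeR adjusted p = 0.758). It was -0.26 without H2O2 Q and -1.20 without H2O2 H. The row LSU-rRNA_Hsa, singled out after its values were seen, held 468 and 463 CPM in mock and 538 and 391 CPM in H2O2. It overlapped between groups, so LSU rows differed among themselves in the same libraries.

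The SSU rows were dominated by 1 row, SSU-rRNA_Hsa, with 76.2% to 78.7% of SSU reads. It held 123 and 108 CPM in mock and 94.7 and 84.7 CPM in H2O2, lower within both letters by a like amount, -0.37 and -0.35, without overlap (log2 -0.37, SE 0.20; edgeR adjusted p = 0.745). The 5S rows lay on the other side, with 77 of 100 higher and a median of 0.21. Of them 45 lay above and 3 below without overlap, 45% and 3% against 18.1% and 20.7% of all rows. Some of the rows above repeat nearly 1 count close to the 10-read floor. The rows 5S_rRNA_dup100, dup101, dup102 and dup103 each held 12 and 10 reads in mock and 20 and 16 or 17 in H2O2. The 45 rows are therefore not 45 independent loci. The median was 0.12 over rows with at least 50 reads. Their summed level, however, was 170 and 194 CPM in mock and 201 CPM in both H2O2 libraries, so that H2O2 lay above mock by a small margin. The row of most 5S reads, 5S_rRNA_dup6, held 20.4 and 27.7 CPM in mock and 24.5 and 31.3 CPM in H2O2, with overlap. The largest 5S value, at 5S_rRNA_dup19, lies outside the naming rule, which takes only the deepest row of each gene name, here dup6, and was chosen after its values were seen. It had 367 and 333 reads in mock and 1189 and 775 in H2O2, a log2 fold change of 1.46 (SE 0.38; edgeR adjusted p = 0.732).

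**Figure D5:**
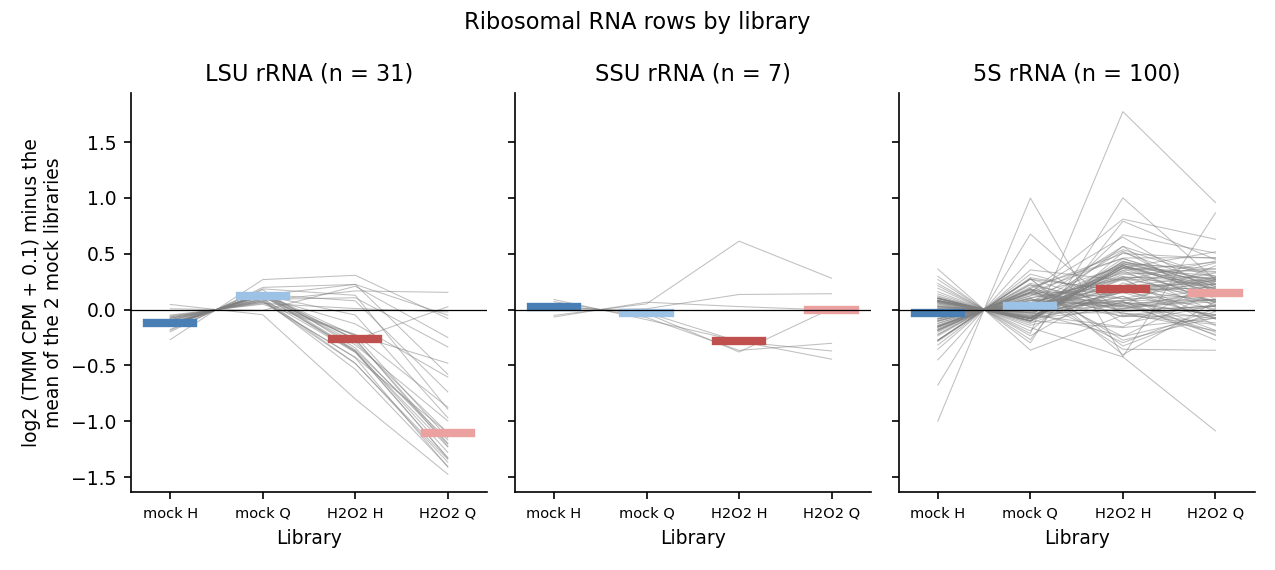
Log2 level (TMM CPM plus 0.1) of each LSU, SSU and 5S row (grey lines) relative to its mean over the 2 mock libraries, with the median of the rows as a bar. The LSU median is -0.27 in H2O2 H and -1.10 in H2O2 Q, and the 5S median is 0.18 and 0.15.

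The labels do not describe how rRNA was removed beyond the kit. In reads scaled to mapped mates alone, with no TMM, the LSU rows held 6581 and 8203 CPM in mock and 5900 and 3800 in H2O2. The SSU rows held 360 and 354 against 279 and 287, and the 5S rows 392 and 493 against 463 and 519. The mapped share of mates ran from 87.4% to 91.7%. The part of rRNA removal in these values was not tested.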

How the data were processed

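RNA-seq of Huh7 cells was deposited as 1 transcript table per library. The authors' tables give, per row, a whole-number read count and an FPKM value; the FPKM is as deposited, per the file headers. The submitters' processing notes name, with no role, the aligners TopHat 1.3.3 and Bowtie 0.12.2, the programs Cuffdiff and CASAVA, and 3 builds (mm8, hg19, GRCh37); the counting program, its strand setting and the annotation are not given in the sources used here. Mapped mates come from the deposited alignment summaries.

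Rows were joined by name and position. The counts entered edgeR 4.0.16 (R 4.3.3; quasi-likelihood test, TMM, treatment alone, 2 residual degrees of freedom, two-sided, Benjamini-Hochberg at 0.05), after the script was tested on simulated data. Letter ratios used CPM plus 0.1. Host genes came from RefSeq synonyms and GENCODE release 29 (GRCh38), used only for which gene holds a row; no coordinates of the tables are printed. Alternatives used limma 3.58.1 (log2 of FPKM plus 1) and DESeq2 1.42.0. Each gene name was first reduced to its row of highest summed count; named rows were then the 10 largest changes in each direction with at least 100 reads in 2 libraries and no overlap, the 10 highest counts, and listed RNAs. Members and lists were chosen with earlier results of these data known.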

Additional observations from a re-analysis of the deposited data

How the results depend on the processing

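For single named rows, 393 values under the alternatives kept their direction and their side of the threshold, 22 reversed and 1 passed its threshold only in DESeq2 (hsa-mir-559, -1.69). DESeq2 called 1 lower row; every other alternative called 0 of the small RNA rows. The tRNA median was 0.162 with limma on FPKM, 0.0555 with at least 50 reads and 0.197 with 1 row per symbol. The SSU median was -0.0834 with limma. The 5S median was 0.122 with at least 50 reads and 0.137 with counts summed per symbol, against 0.213. With at least 50 reads, 85 rows lay below without overlap, from fewer rows tested (741). Leaving out 1 library, the lone one being assumed to vary like the other group, gave medians of 0.0513 to 0.199 (miRNA), 0.0605 to 0.477 (snoRNA), -0.00963 to 0.193 (tRNA), -1.12 to -0.26 (LSU), -0.364 to -0.00583 (SSU) and 0.152 to 0.294 (5S). The tRNA median turned negative without H2O2 H.

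The named rows that reversed were near 0 or split by letter. Leaving out 1 library, ACA10 ranged from -0.19 to 1.07, ACA21 from -0.31 to 0.75, ACA33 from -0.43 to 0.62 and HBII-240 from -0.33 to 0.71, each negative without mock Q or H2O2 H. HBII-429 ranged from -0.54 to 0.60 and U101 from -0.56 to 0.56, both positive without mock H or H2O2 Q. The row hTR ranged from -0.82, without H2O2 H, to 2.33, without mock H. ACA33 was -0.0015 with 10 reads in all libraries, -0.0114 with at least 50 reads and -0.00121 with counts summed per symbol. HBII-429 was 0.0349 with limma. The row tRNA-Ser-TCA(m) was 0.00624 with DESeq2 size factors and in DESeq2, 0.0127 without mock Q and 0.146 without H2O2 Q. The cause was not tested.

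With the title letter as a replicate block, 50 of all rows were called and none of the small RNA rows, and HBII-429 became 0.0180; leaving out mock Q called 47 rows, again none of these. The block medians were 0.155 (miRNA), 0.215 (snoRNA), 0.133 (tRNA), -0.70 (LSU), -0.33 (SSU) and 0.223 (5S). Deviations from the group means correlated within letters at 0.58 over all rows and at 0.50 over these. The main fit does not treat the libraries as paired, since there are only 2 pairs and the meaning of their shared title letter is not given. Differences between letters therefore count as spread in its SEs. With 2 libraries a group, the test depends on a spread borrowed from all rows.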
